A study of Mus musculus with 6 samples.

Results

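A set of 10 immediate early genes (the AP-1 genes Fos, Fosb, Jun and Junb, the EGR genes Egr1, Egr2 and Egr3, and Nr4a1, Atf3 and Btg2) was followed through a culture and growth factor experiment on mouse tailbud mesoderm progenitor cells. They were picked by symbol from the 19342 gene names of the count table, of which 19340 are distinct, and not by any measured value. The study asked how growth factors affect the specification of primary mesoderm progenitors taken from mouse embryos, and sequenced total RNA of 6 libraries, 1 per condition. The cells and the fibroblasts beneath them came from C57BL/6 mice. The growth factor libraries were FGF4 beside BMP4 for 11 h, BMP4 alone for 11 h, FGF8 beside BMP4 for 5 h, and BMP4 alone for 5 h, all with recombinant human proteins given after 96 h of culture, so that they are labelled 107 h (11 h) and 101 h (5 h) in culture. The untreated libraries were taken after 96 h and at 0 h of culture. Culture was in DMEM with 10% serum on a feeder layer of embryonic fibroblasts stopped from dividing by mitomycin C. No untreated library of 101 h or 107 h was analysed here, so growth factor and added culture time cannot be told apart. No condition was repeated. Differences are therefore given without p-values or a check by replicates, and the intervals given cover counting error only.

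Immediate early genes are transcribed within minutes of a stimulus from promoters that are already poised, without new protein synthesis. Growth factors reach many of them through the ERK kinases, which act on SRF with its ternary complex partners at CArG boxes and on CREB family factors at cAMP response elements. Their products are mostly transcription factors: FOS and JUN proteins pair into AP-1, EGR proteins bind GC-rich sites, and their messages are usually short-lived. In the tailbud, FGF signalling through ERK is high, and BMP signals through SMAD proteins.

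Total counts per library lay between 179196459 and 272743104, and 3 counts correspond to between 0.011 and 0.0177 CPM (counts scaled to the size of the library). In the deposited table the rows of the untreated columns stand beside their names, whereas those of the growth factor columns do not. Each growth factor column was therefore matched to the alphabetical names in order, by level. All 40 values of the 10 genes in the growth factor columns were placed, and the next best row cost at least 15.2 units more. The offsets of the nearest firmly placed names gave the same row for all 40. Those names, some of them among the 10 genes, come from the same alignment. Such agreement was reached by 99.95% to 99.99% of the firmly placed genes checked in each column, so it is not an independent check either. Of 656 neighbours within 10 names that had at least 100 counts, 629 (95.9%) lay within 1.5 times of the untreated range, as the plot of each gene and its neighbours shows. Neighbours are counted once per gene and column, so names shared by adjacent genes repeat. Since the matching favours rows near the untreated levels, this share is not an independent check of the placement. At a limit of 5 units, set after the data were seen, a single value is less firm. In the library with BMP4 and FGF4, the rows of Fosb and Foxb1 would lie nearer to the untreated levels if exchanged, by 6.2 units. The results for Fosb are given both ways. Junb (4.6) and Egr2 (4.4) in the same library came next, below the limit, and are given as placed.

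**Figure D1:**
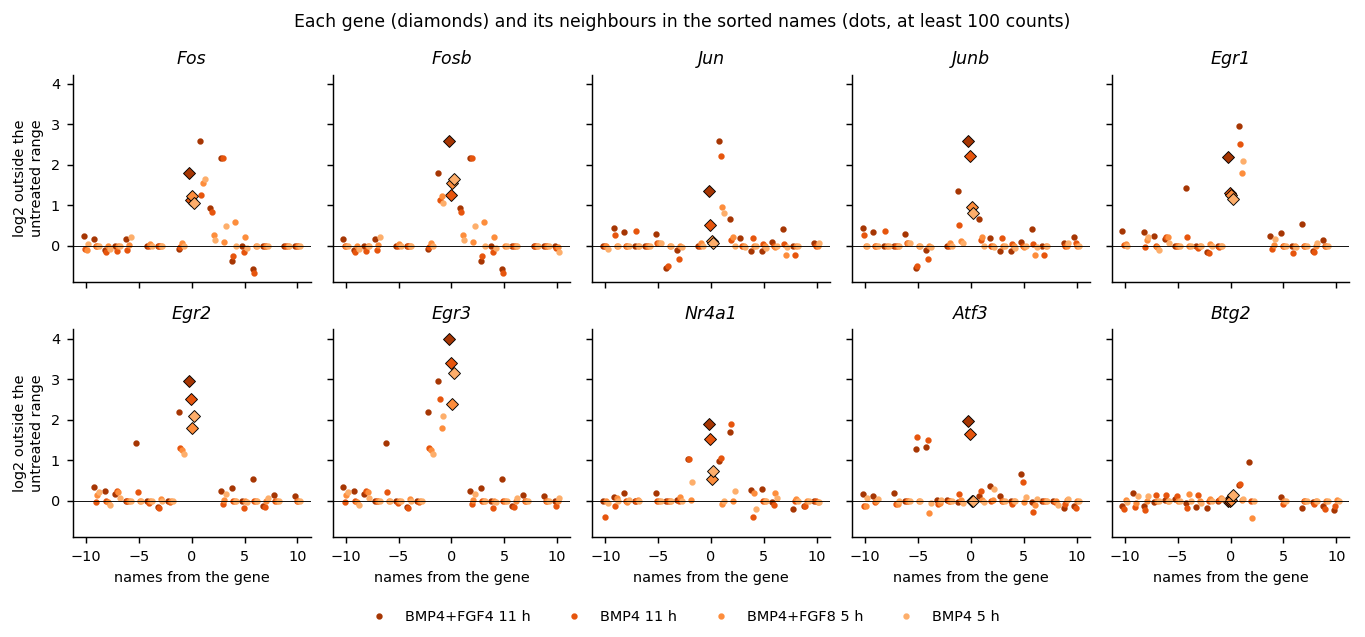
For each gene (1 panel each), the log2 distance of the 4 growth factor libraries outside the range of both untreated libraries is drawn for the gene (diamonds) and for the names within 10 places of it in the sorted list (dots, at least 100 counts). Values within the untreated range are at 0. Of the neighbours, 95.9% lie within 1.5 times of it, which the matching by level favours. Diamonds of most of the genes stand above their neighbours.

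The libraries also differed in make-up, with values that bear on every comparison. The 6 genes of the tailbud and presomitic mesoderm summed to 24.8 CPM with BMP4 and FGF4 for 11 h, 114 CPM with BMP4 for 11 h, 218 CPM with BMP4 and FGF8, 223 CPM with BMP4 for 5 h, 12.5 CPM at 96 h untreated and 249 CPM at 0 h. T, the T-box factor of the tailbud, stood at 10.9, 44.4, 73.3, 77.8, 7.66 and 83.3 CPM in that order of libraries, so this defining marker of the labelled cells was low at 96 h untreated and with BMP4 and FGF4 for 11 h. The BMP4 5 h library was closer to 0 h than to 96 h untreated: of 13416 genes, 61 stood at least 2-fold higher with BMP4 for 5 h than at 0 h and 18 stood lower, against 316 higher and 449 lower when it was set against 96 h untreated. The library with BMP4 and FGF8 differed from it by 30 higher and 9 lower genes. The make-up of the libraries labelled 5 h (101 h in culture) was thus nearer to 0 h than to 96 h of culture. Whether these labels are right could not be settled from the files, so each ratio of a 5 h library over 96 h untreated, and of 11 h over 5 h, is given under that doubt. BMP4 for 5 h is therefore set below against both untreated libraries. In bulk RNA, fewer cells of a type and less RNA per cell cannot be told apart.

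Of the 10 genes, 8 were higher in all 4 growth factor libraries than in both untreated libraries, a pattern held by 646 of 13416 genes (4.82%). Btg2 and Atf3 were the exceptions. The 8 include Egr2 and Egr3, which reached 1 CPM only in growth factor libraries, so that passing the filter already implied a difference for them. The others of the 8 were Fos, Fosb, Jun, Junb, Egr1 and Nr4a1. Jun with BMP4 for 5 h was 1.03 times the level of 96 h untreated, within counting error (0.998 to 1.06). Summed over the 10 genes, the level was 322 CPM with BMP4 and FGF4 for 11 h, 223 CPM with BMP4 for 11 h, 187 CPM with BMP4 and FGF8, 184 CPM with BMP4 for 5 h, 96.5 CPM at 96 h untreated and 94.5 CPM at 0 h. Of the 10, 9 were highest with BMP4 and FGF4 for 11 h, where 22.7% of all genes had their highest value, and 7 were lowest at 0 h, where 15% of all genes had their lowest. At the row of Foxb1, Fosb would be at 8.65 CPM with BMP4 and FGF4, 8 of the 10 would be highest in that library, and the sum there would be 293 CPM.

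**Figure D2:**
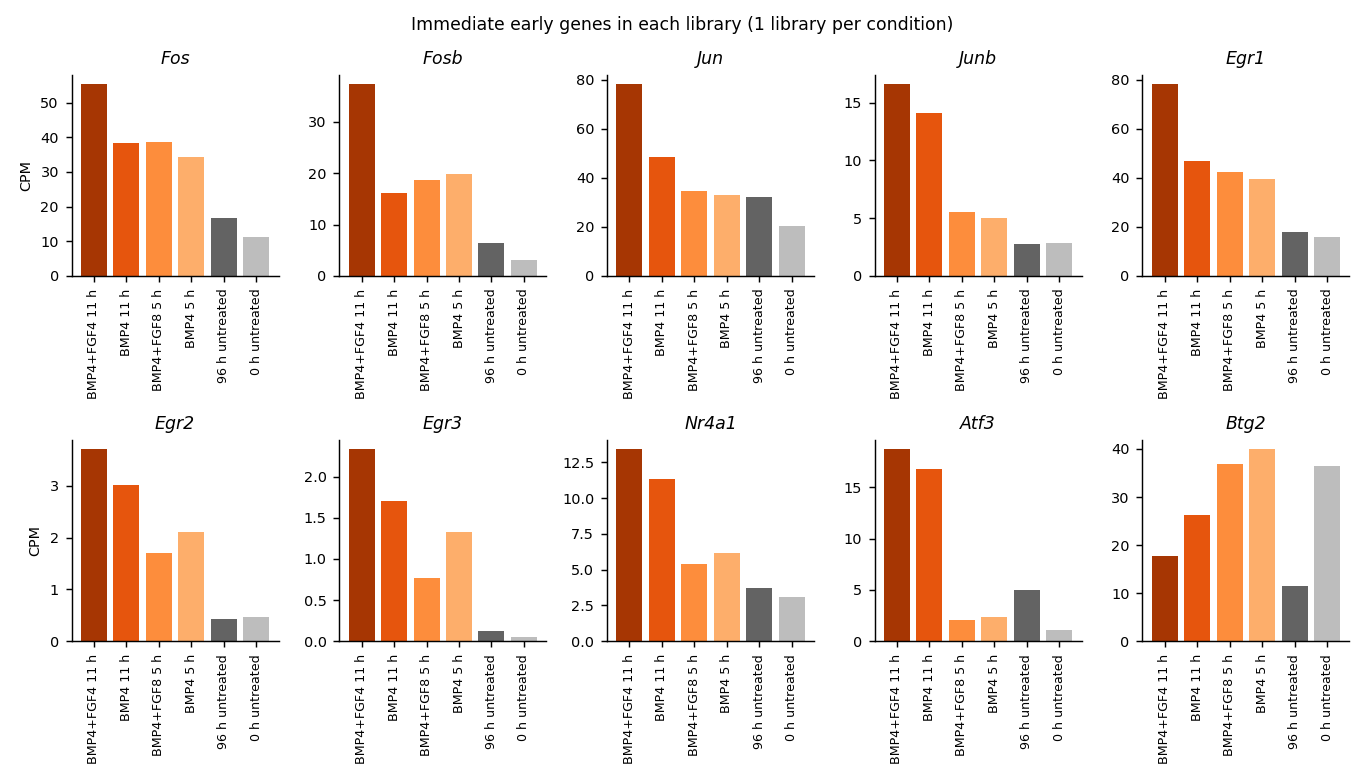
Levels of the 10 genes in CPM in each library (1 bar per library, 1 library per condition, each axis from 0). Growth factor libraries (orange) exceed both untreated libraries (grey) for all genes but Atf3 and Btg2; Btg2 is highest with BMP4 for 5 h, at 39.9 CPM.

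Fos and Fosb encode the AP-1 subunits that must pair with a JUN protein to bind DNA. Their promoters are shown because both genes were higher in every growth factor library than in both untreated libraries and both promoters hold letters of a cAMP response element. The sequences are RefSeq promoters of GRCm38.p6, read 5′ to 3′ on the gene's strand and ending before the first annotated exon. Fos lies at chr12:85473890-85477273 on the plus strand and its sequence at chr12:85473640-85473889; Fosb lies at chr7:19302696-19310051 on the minus strand and its sequence at chr7:19310052-19310295. Capitals mark TGACG, the core of a cAMP response element, and, in Fosb, GCGNGGGCG, the site of EGR proteins.
Fos: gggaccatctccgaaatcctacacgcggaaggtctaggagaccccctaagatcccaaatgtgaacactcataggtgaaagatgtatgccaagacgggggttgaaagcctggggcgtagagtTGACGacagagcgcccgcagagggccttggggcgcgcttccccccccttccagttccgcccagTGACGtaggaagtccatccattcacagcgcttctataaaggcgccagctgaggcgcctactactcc
Fosb: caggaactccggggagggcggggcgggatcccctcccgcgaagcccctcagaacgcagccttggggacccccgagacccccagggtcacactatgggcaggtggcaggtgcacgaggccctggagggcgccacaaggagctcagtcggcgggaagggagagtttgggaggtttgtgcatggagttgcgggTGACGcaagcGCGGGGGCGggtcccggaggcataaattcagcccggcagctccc
In Fos, TGACG begins 129 and 66 bases before the RefSeq start. In Fosb it begins 60 bases before the start, with the EGR site letters 50 bases before it.

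Fos was at 55.3 CPM with BMP4 and FGF4 for 11 h, 38.3 CPM with BMP4 for 11 h, 38.7 CPM with BMP4 and FGF8, 34.4 CPM with BMP4 for 5 h, 16.6 CPM at 96 h untreated and 11.3 CPM at 0 h. Every growth factor library stood above both untreated libraries, the 3 libraries other than BMP4 with FGF4 lay close together, and 0 h was lowest. Against 96 h untreated, Fos was 3.33-fold higher with BMP4 and FGF4 (counting interval 3.22 to 3.45) and 2.08-fold higher with BMP4 for 5 h (2.0 to 2.15). Against 0 h, BMP4 for 5 h was 3.05-fold higher (2.91 to 3.19).

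Fosb was at 37.3 CPM with BMP4 and FGF4 for 11 h, 16.1 CPM with BMP4 for 11 h, 18.6 CPM with BMP4 and FGF8, 19.8 CPM with BMP4 for 5 h, 6.41 CPM at 96 h untreated and 3.05 CPM at 0 h. As for Fos, the library with FGF4 was highest, the other growth factor libraries lay close together and 0 h was lowest. The spread between the highest and the lowest library was 12.2-fold for Fosb and 4.89-fold for Fos. BMP4 for 5 h exceeded 0 h by 6.49-fold (interval 5.98 to 7.05), the largest fold of the 8 genes that reached 1 CPM in an untreated library. The 5.82-fold excess with BMP4 and FGF4 over 96 h untreated rests on 8033 counts. If the row of Foxb1 were the right one, Fosb would have 1863 counts there, its log2 ratio over 96 h untreated would be 0.41 in place of 2.45, and that over BMP4 alone would be -0.86 in place of 1.18. The library with FGF4 would then be the lowest of the growth factor libraries, still above both untreated ones, and the spread 6.49-fold.

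Jun and Junb encode the partners that complete AP-1; JUN also pairs with itself, and JUNB is the weaker activator. Jun lies at chr4:95049034-95052222 and Junb at chr8:84974484-84978718, both on the minus strand. Junos is annotated antisense to Jun and Prdx2 overlaps Junb on the plus strand. The library kit was stranded, but the sources used here do not give the strand setting of the counting, so reads of these partners may not have been told apart.

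Jun was at 78.2 CPM with BMP4 and FGF4 for 11 h, 48.6 CPM with BMP4 for 11 h, 34.7 CPM with BMP4 and FGF8, 33.0 CPM with BMP4 for 5 h, 32.1 CPM at 96 h untreated and 20.3 CPM at 0 h. The libraries of 5 h differed from 96 h untreated by under 10%: the ratios were 1.08 (1.05 to 1.12) with FGF8 and 1.03 (0.998 to 1.06) with BMP4 alone. At 11 h Jun was 2.44-fold higher with BMP4 and FGF4 than at 96 h untreated and 1.51-fold higher with BMP4 alone, short of 2-fold.

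Junb was at 16.6 CPM with BMP4 and FGF4 for 11 h, 14.1 CPM with BMP4 for 11 h, 5.56 CPM with BMP4 and FGF8, 5.01 CPM with BMP4 for 5 h, 2.79 CPM at 96 h untreated and 2.86 CPM at 0 h. Its libraries fell into 3 levels, with both 11 h libraries on top, both 5 h libraries between and the untreated libraries at the bottom, within counting error of each other (ratio 0.975 of 96 h over 0 h, interval 0.876 to 1.09). BMP4 for 11 h stood 2.82-fold above BMP4 for 5 h (2.62 to 3.03) and 5.06-fold above 96 h untreated (4.66 to 5.50). Per kilobase of exon Jun was the higher of this pair in every library, at 24.5 CPM per kilobase with BMP4 and FGF4 where Junb was at 7.20, and Junb had the larger ratios over 96 h untreated.

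Egr1, Egr2 and Egr3 encode zinc finger factors that share a DNA-binding domain and differ in range: EGR1 is the broad mitogen-responsive member, EGR2 acts in hindbrain segmentation and myelination, and EGR3 acts in muscle spindle and lymphocyte development. Egr2 lies at chr10:67535475-67542188 on the plus strand. The Egr2 promoter is shown because, of the 8 promoters matched, it is the one whose window holds a CArG box, the site of SRF; Egr1 and Egr3 were not searched. It lies before an internal start, within the annotated gene, at chr10:67537619-67537868 on the plus strand (RefSeq, GRCm38.p6); capitals mark the CArG box and TGACG or its reverse complement CGTCA.
Egr2: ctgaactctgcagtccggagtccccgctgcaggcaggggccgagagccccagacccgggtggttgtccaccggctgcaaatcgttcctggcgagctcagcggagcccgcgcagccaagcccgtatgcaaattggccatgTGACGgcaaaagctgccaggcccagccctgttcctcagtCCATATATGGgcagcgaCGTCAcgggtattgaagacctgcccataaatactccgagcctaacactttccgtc
The CArG box begins 72 bases before that start, between a TGACG 111 bases and a CGTCA 55 bases before it.

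Egr1 (chr18:34859823-34864984, plus strand) was at 78.3 CPM with BMP4 and FGF4 for 11 h, 46.9 CPM with BMP4 for 11 h, 42.3 CPM with BMP4 and FGF8, 39.7 CPM with BMP4 for 5 h, 18.0 CPM at 96 h untreated and 15.7 CPM at 0 h. Growth factor and untreated libraries did not overlap, and the untreated libraries were close to each other. Its excess over 96 h untreated was 4.35-fold with BMP4 and FGF4 (4.22 to 4.49), 2.61-fold with BMP4 for 11 h, 2.35-fold with BMP4 and FGF8 and 2.20-fold with BMP4 for 5 h.

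Egr2 was at 3.70 CPM with BMP4 and FGF4 for 11 h, 3.01 CPM with BMP4 for 11 h, 1.70 CPM with BMP4 and FGF8, 2.10 CPM with BMP4 for 5 h, 0.420 CPM at 96 h untreated and 0.476 CPM at 0 h. Egr3 (chr14:70077203-70082614, plus strand) was at 2.33 CPM with BMP4 and FGF4 for 11 h, 1.70 CPM with BMP4 for 11 h, 0.773 CPM with BMP4 and FGF8, 1.33 CPM with BMP4 for 5 h, 0.125 CPM at 96 h untreated and 0.0457 CPM at 0 h. Both genes were below 0.5 CPM without growth factor, and between 0.773 and 3.70 CPM with it. Neither reached 1 CPM in an untreated library, and they entered the comparisons only through the libraries in which they were high, so that passing the filter already implied a difference. Egr3 rests on 503, 288, 174 and 295 counts in the growth factor libraries in the order given, and on 34 and 10 counts in the untreated ones. Its plain ratio of BMP4 for 5 h over 0 h was 29.2 with an interval of 15.6 to 61.4, and over 96 h untreated 10.7 (7.45 to 15.7). FGF8 beside BMP4 went with less Egr3 at 5 h, at 0.580 times the level with BMP4 alone (0.478 to 0.702), the lowest such ratio among the 10 genes.

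Nr4a1 (chr15:101254269-101274795, plus strand) encodes NUR77, an orphan nuclear receptor controlled by its own level rather than by a known ligand. Nr4a1 was at 13.4 CPM with BMP4 and FGF4 for 11 h, 11.3 CPM with BMP4 for 11 h, 5.40 CPM with BMP4 and FGF8, 6.14 CPM with BMP4 for 5 h, 3.74 CPM at 96 h untreated and 3.12 CPM at 0 h. Like Junb it stood at 3 levels, with 11 h above 5 h and 5 h above untreated. The excess over 96 h untreated was 3.58-fold with BMP4 and FGF4 (3.33 to 3.85), 3.03-fold with BMP4 for 11 h (2.81 to 3.27), 1.44-fold with BMP4 and FGF8 (1.33 to 1.57) and 1.64-fold with BMP4 for 5 h (1.51 to 1.78).

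Atf3 (chr1:191170296-191218039, minus strand) encodes a bZIP factor of the ATF and CREB family that is induced by mitogens and by many forms of stress, and that can repress transcription. Atf3 was at 18.7 CPM with BMP4 and FGF4 for 11 h, 16.8 CPM with BMP4 for 11 h, 2.07 CPM with BMP4 and FGF8, 2.41 CPM with BMP4 for 5 h, 5.02 CPM at 96 h untreated and 1.07 CPM at 0 h. It was the member whose 5 h libraries lay below 96 h untreated, at 0.413 times with FGF8 (0.371 to 0.459) and 0.480 times with BMP4 alone (0.434 to 0.531), and yet above 0 h, at 2.25 times with BMP4 alone (1.93 to 2.64). The step between times was the largest of the 10: BMP4 for 11 h stood 6.98-fold above BMP4 for 5 h (6.36 to 7.67).

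Btg2 (chr1:134075170-134079120, minus strand) encodes an antiproliferative adaptor of the deadenylase complex that is induced by growth factors and by p53. Its promoter is shown because it holds the only complete cAMP response element, TGACGTCA, among the promoters matched, and because its levels ran unlike those of the other genes. The sequence is chr1:134079156-134079405, minus strand (RefSeq, GRCm38.p6), with TGACGTCA 166 bases and GCGNGGGCG 131 bases before the start in capitals.
Btg2: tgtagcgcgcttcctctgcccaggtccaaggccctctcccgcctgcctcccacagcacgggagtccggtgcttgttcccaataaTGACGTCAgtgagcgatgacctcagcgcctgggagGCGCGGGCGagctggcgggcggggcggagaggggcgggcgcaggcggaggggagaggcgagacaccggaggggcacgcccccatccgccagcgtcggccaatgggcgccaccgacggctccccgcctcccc
Btg2 was at 17.8 CPM with BMP4 and FGF4 for 11 h, 26.3 CPM with BMP4 for 11 h, 36.9 CPM with BMP4 and FGF8, 39.9 CPM with BMP4 for 5 h, 11.4 CPM at 96 h untreated and 36.5 CPM at 0 h. The 5 h libraries stood at the level of 0 h (ratio 1.09 for BMP4 alone, interval 1.06 to 1.13), the 11 h libraries lay between, and 96 h untreated was lowest, at 0.311 times the level of 0 h (0.299 to 0.325). The tailbud gene sums given above were likewise highest in the 0 h and 5 h libraries, lower with BMP4 for 11 h and lowest with BMP4 and FGF4 and at 96 h untreated; the relation was not tested.

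Set comparison by comparison, a gene was called where the log2 ratio, taken after adding 0.5 CPM to both libraries, was at least 1 in size and the counting interval excluded equality. In 96 h untreated over 0 h untreated, 1 of the 10 genes was called higher (Atf3, log2 ratio 1.81) and 1 lower (Btg2, -1.64), where 4.06% of 13831 genes were called higher and 2.52% lower. The other members ran between -0.09 (Egr2) and 0.96 (Fosb), and the median of the 10 was 0.21, with 0.00 over all genes. After 96 h without growth factor, Atf3 was thus higher and Btg2 lower, and none of the AP-1 and EGR genes was called; Fosb, with a plain ratio of 2.10, fell just short on this scale.

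BMP4 for 5 h over 96 h untreated gave 6 of 10 genes called higher (Fos, Fosb, Egr1, Egr2, Egr3 and Btg2) and 0 lower, where 2.36% of 13416 genes were called higher and 3.35% lower. The median log2 ratio was 1.08, beside -0.01 over all genes. Of the 8 genes that passed the filter in the untreated libraries alone, 4 were called, and the median of the 8 was 0.89. Btg2 had the largest ratio, 1.77, and Junb (0.74), Nr4a1 (0.65), Jun (0.04) and Atf3 (-0.92) were not called.

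Over 0 h untreated, the library it otherwise resembled, BMP4 for 5 h gave 5 of 10 genes called higher (Fos 1.57, Fosb 2.52, Egr1 1.31, Egr2 1.41 and Egr3 1.75) and 0 lower, where 0.455% of genes were called higher and 0.134% lower. Of the 61 genes called higher in this comparison, 5 were members. All 10 ratios were positive, the lowest being that of Btg2 at 0.13, and their median was 1.10, beside -0.01 over all genes. Of the 8 genes that passed the filter without growth factor, 3 were called, and the median of the 8 was 0.88. Btg2, called over 96 h untreated, was not called here.

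BMP4 with FGF8 for 5 h over 96 h untreated gave 6 of 10 called higher (Fos, Fosb, Egr1, Egr2, Egr3 and Btg2, with log2 ratios between 1.03 for Egr3 and 1.66 for Btg2) and 1 lower (Atf3, -1.10), where 2.46% of genes were called higher and 3.18% lower. The median was 1.11, beside 0.00 over all genes. Of the 8 genes that passed the filter without growth factor, 4 were called higher, and the median of the 8 was 1.04. Set directly against BMP4 for 5 h, FGF8 gave 0 of 10 called in either direction, where 0.224% of genes were called higher and 0.0671% lower. The 10 ratios lay between -0.53 (Egr3) and 0.17 (Fos) with a median of -0.10. No 2-fold difference with added FGF8 was detectable for any of the 10, though counting intervals excluded equality for all of them, and how far libraries of 1 condition vary is not known.

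BMP4 for 11 h over 96 h untreated gave 9 of 10 called higher and 0 lower, where 2.63% of genes were called higher and 0.335% lower. Jun, at 0.59, was the one not called, and Junb (2.15) and Egr2 (1.93) had the largest ratios. The median was 1.42, beside -0.03 over all genes, and 7 of the 8 genes detected above 1 CPM without growth factor were called. The median of those 8 was 1.31. Over BMP4 for 5 h, BMP4 for 11 h gave 2 of 10 higher (Atf3 2.57 and Junb 1.41) and 0 lower, where 2.72% were called higher and 0.403% lower. Nr4a1 was next at 0.83, whereas Fosb (-0.29) and Btg2 (-0.59) had negative ratios. These comparisons share the 96 h untreated or the 5 h library, so their values are not independent.

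BMP4 with FGF4 for 11 h over 96 h untreated gave 9 of 10 called higher and 0 lower, where 1.52% were called higher and 0.127% lower. Here Btg2 (0.62) was the one not called, and Fosb (2.45) and Junb (2.37) led. The median was 1.95, beside -0.03 over all genes, and 7 of the 8 genes that passed the filter without growth factor were called. The median of those 8 was 1.76. With the row of Foxb1, Fosb would not be called, which leaves 8 of 10, or 6 of the 8. The median of the 10 would then be 1.76. Set against BMP4 alone for 11 h, FGF4 gave 1 of 10 called higher (Fosb 1.18) and 0 lower, where 1.33% were called higher and 0.693% lower; this single call is also lost with the row of Foxb1. Egr1 (0.73), Jun (0.68) and Fos (0.52) followed, Btg2 was negative at -0.55, and the median was 0.31, beside -0.03 over all genes. Without TMM the count over all genes was 231 higher and 73 lower in place of 178 and 93.

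**Figure D3:**
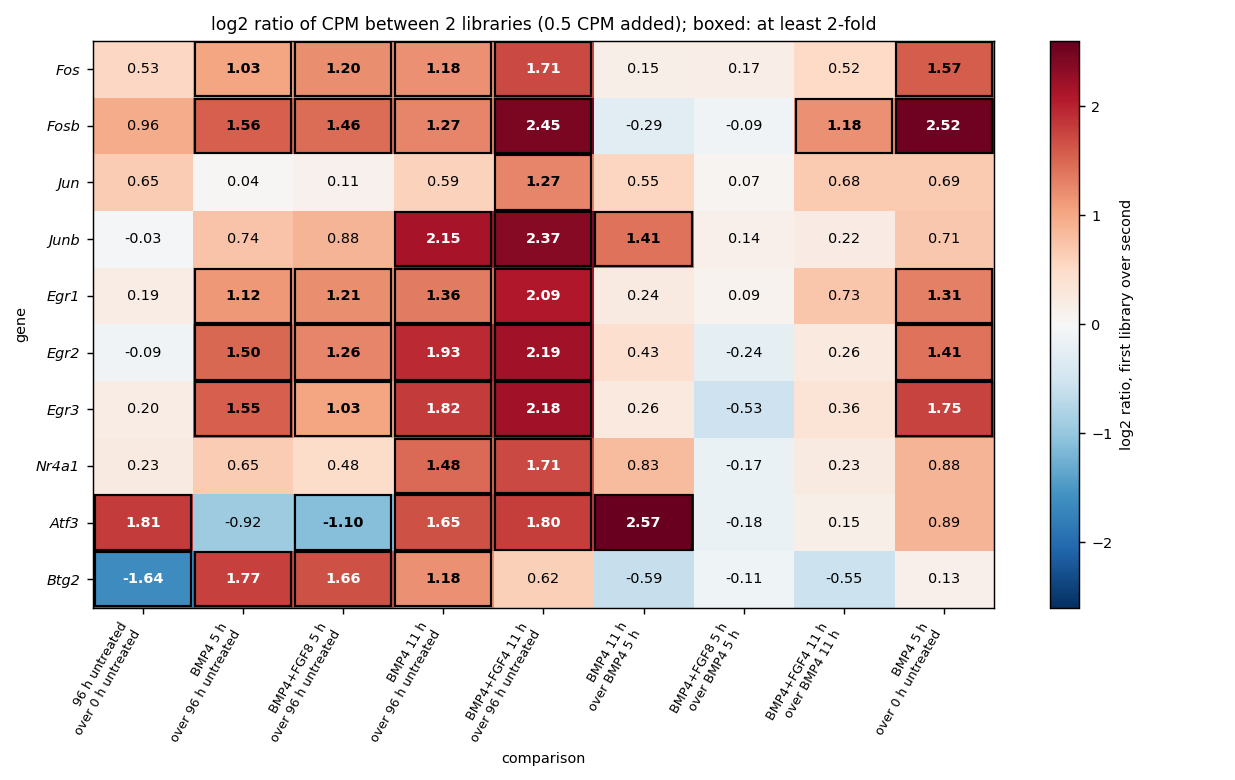
log2 ratios of the 10 genes (rows) in 9 comparisons of 2 libraries (columns), red where the first library is higher and blue where it is lower, with 0.5 CPM added; boxes mark ratios of at least 2-fold. The columns of BMP4 and BMP4 with FGF4 for 11 h over 96 h untreated hold 9 boxes each, and the column of FGF8 with BMP4 over BMP4 alone at 5 h holds none; at the row of Foxb1, Fosb would lose its boxes in both columns of FGF4.

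How far each gene cleared the untreated libraries was measured as its lowest growth factor level over its higher untreated level. This plain ratio, without 0.5 CPM added, was 2.08 for Fos, 2.52 for Fosb, 2.20 for Egr1, 1.75 for Junb, 1.44 for Nr4a1 and 1.03 for Jun. It was 3.58 for Egr2 and 6.18 for Egr3, the genes that entered through their high libraries, and below 1 for Atf3 (0.413) and Btg2 (0.487). Of the 10, 6 had at least 1.5, against 39 of 13416 genes (0.291%), so 33 other genes did. The 6 include Egr2 and Egr3, for which passing the filter already implied a difference, so the count of 6 is raised by them. Without these genes, Fos, Fosb, Egr1 and Junb remain. At the row of Foxb1, the ratio of Fosb would be 1.35 and 5 of the 10 would have at least 1.5. The 33 other genes include Lox, Eln, Bgn and Col12a1, which are genes of the extracellular matrix, and the nuclear RNAs Malat1 and Neat1. All of these were named here after their values were seen. The matching of columns to names favours values inside the untreated range, so the share over all genes may be low.

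**Figure D4:**
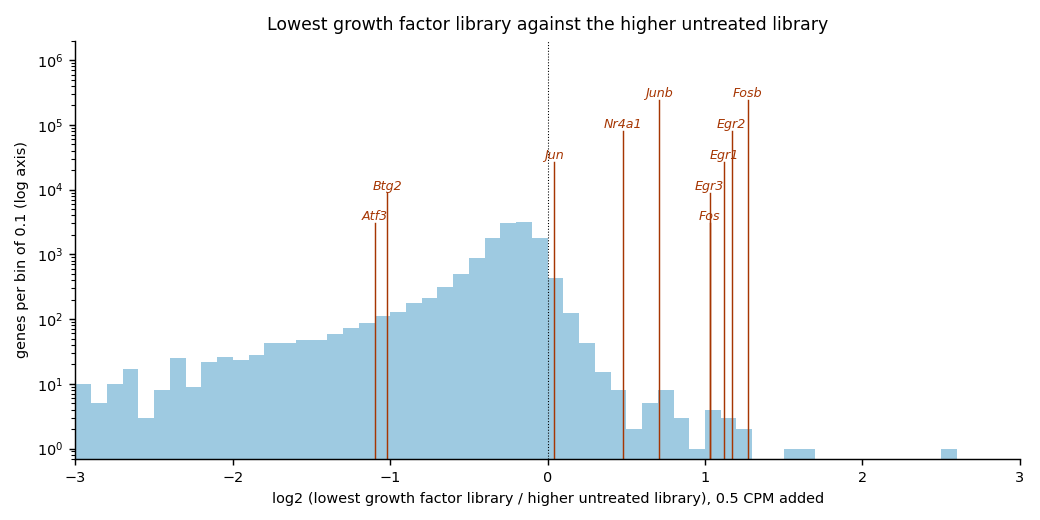
Number of genes (log axis, bins of 0.1) by the log2 ratio of the lowest growth factor library over the higher untreated library. Both levels have 0.5 CPM added, and the 10 immediate early genes are marked by lines. Most genes lie below 0. On this scale Fosb is farthest right of the marked genes at 1.27 (0.41 at the row of Foxb1). Egr2 is at 1.17 and Egr3 at 1.03, and Atf3 (-1.10) and Btg2 (-1.02) lie on the left.

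The levels can be set between genes only per length. Per kilobase of annotated exon, Jun (24.5) and Fos (23.5) led with BMP4 and FGF4 for 11 h, followed by Egr1 (17.5), Atf3 (8.68), Junb (7.20), Btg2 (6.47), Fosb (5.97, or 1.38 at the row of Foxb1), Nr4a1 (3.82), Egr2 (1.09) and Egr3 (0.530), all in CPM per kilobase. At 0 h untreated Btg2 led at 13.3, ahead of Jun (6.37), Fos (4.80) and Egr1 (3.51), while Atf3 was at 0.497 and Egr3 at 0.0104 CPM per kilobase. Jun and Fos, and Atf3 and Junb, are neighbours in the first order whose spread between libraries of 1 condition is not known.

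Across the 6 libraries, log2 levels of Fos, Fosb, Egr1, Egr2 and Egr3 ran closely together, with Pearson r between 0.92 (Fosb and Egr2) and 0.99 (Fos and Fosb). For Fosb this rests on its row with BMP4 and FGF4: at the row of Foxb1 its r would be 0.76 with Fos, 0.65 with Egr1, 0.67 with Egr2 and 0.68 with Egr3. Junb and Nr4a1 also ran closely together, at 0.99, but were not set apart from these genes. Nr4a1 had r of 0.95 with both Egr2 and Egr3, and Junb 0.93 with Egr2. With Fos they had lower values, of 0.88 for Nr4a1 and 0.85 for Junb. Atf3 ran with Jun (0.90), Nr4a1 (0.87) and Junb (0.85) more than with Fosb (0.60), and Btg2 had r between -0.55 (Atf3) and 0.17 (Egr2) with all others. These are descriptions over 6 libraries that differ in make-up and scaling. By the same measure, with Fosb as placed, over 801 genes that reached 5 CPM and spanned at least 1 log2 unit, the genes most like Fos were Fosb, Egr1 (0.982) and Lox (0.974), those most like Fosb were Fos, Gsn (0.980) and Lox (0.978), and those most like Junb were F3 (0.993), Nr4a1 and Cyr61 (0.982). Jun was closest to Zfp36 (0.988), a gene whose protein destabilises short-lived messages, then Ecm1 (0.976) and Dusp1 (0.975). Atf3 was closest to Klf6 (0.991), Rgs16 and Ahnak (both 0.988), Nr4a1 to Cyr61 (0.993), Junb and F3 (both 0.987), and Egr1 to Igfbp7 (0.987), Fos and Gsn (0.973). Egr2 and Egr3 did not reach 5 CPM and were left out. Btg2 was closest to Erc2 (0.999), Magi1 (0.998) and Spred3 (0.997), of which Magi1 was at 25.8 CPM with BMP4 and FGF4 for 11 h, 33.8 CPM with BMP4 for 11 h, 46.2 CPM with BMP4 and FGF8, 48.8 CPM with BMP4 for 5 h, 18.7 CPM at 96 h untreated and 47.1 CPM at 0 h.

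RefSeq promoter windows of 300 bases, 250 before and 50 after the start, were matched for 8 of the 10 genes; Egr1 and Egr3 are named only. TGACG, searched on both strands, was found in 7 of the 8 (all but Jun), against 23.0% of the 27025 genes with a window. GCGNGGGCG was found in Btg2, Fosb and Nr4a1, against 6.27% of genes. The CArG box, a named motif, was found in Egr2 alone and TGACGTCA, which contains TGACG, in Btg2 alone, against 1.81% and 2.03% of genes. A match describes letters in this window and is not a measure of binding. A site farther from the start would be missed, so a gene without a match, such as Fos for the CArG box, may still have one.

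Of 40 other immediate early genes, listed with earlier results of these data known, 35 could be analysed in all libraries. At 5 h few of them differed. Where 2.36% of all genes were called higher, 1 of the 35 was higher with BMP4 than at 96 h untreated (Arc, a synaptic immediate early gene, at 2.80 CPM against 0.560 CPM), with a median log2 ratio of 0.09, and 1 with BMP4 and FGF8 (Arc, at 1.82 CPM), with a median of 0.07, beside 2.46% of all genes. Over 0 h untreated, 2 were higher with BMP4 for 5 h (Ptgs2, at 1.55 CPM against 0.110 CPM, and Ctgf, at 14 CPM against 6.15 CPM), with a median of 0.09, beside 0.455% of all genes. At 11 h, 14 were higher with BMP4 and FGF4 than at 96 h untreated and 13 with BMP4 alone, with medians of 0.77 and 0.75, and 0 were lower in either, where 1.52% and 2.63% of all genes were called higher. BMP4 for 11 h over BMP4 for 5 h had 11 higher and 0 lower, beside 2.72% higher over all genes, and 96 h over 0 h untreated had 1 higher (Klf2). For instance Maff, a small bZIP factor, was at 10.2 CPM with BMP4 and FGF4 for 11 h, 13.9 CPM with BMP4 for 11 h, 5.24 CPM with BMP4 and FGF8, 5.53 CPM with BMP4 for 5 h, 2.89 CPM at 96 h untreated and 4.85 CPM at 0 h. Csrnp1 was at 15.5 CPM with BMP4 and FGF4 for 11 h, 18.7 CPM with BMP4 for 11 h, 4.02 CPM with BMP4 for 5 h and 6.75 CPM at 96 h untreated. Klf6, a zinc finger factor, was at 49.8, 44.3, 16.7 and 22.0 CPM in these libraries. Myc, a growth regulator, was at 44.7, 48.6, 28.3 and 45.1 CPM in them. The difference between the 10 genes and the other 35 at 5 h was not tested.

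**Figure D5:**
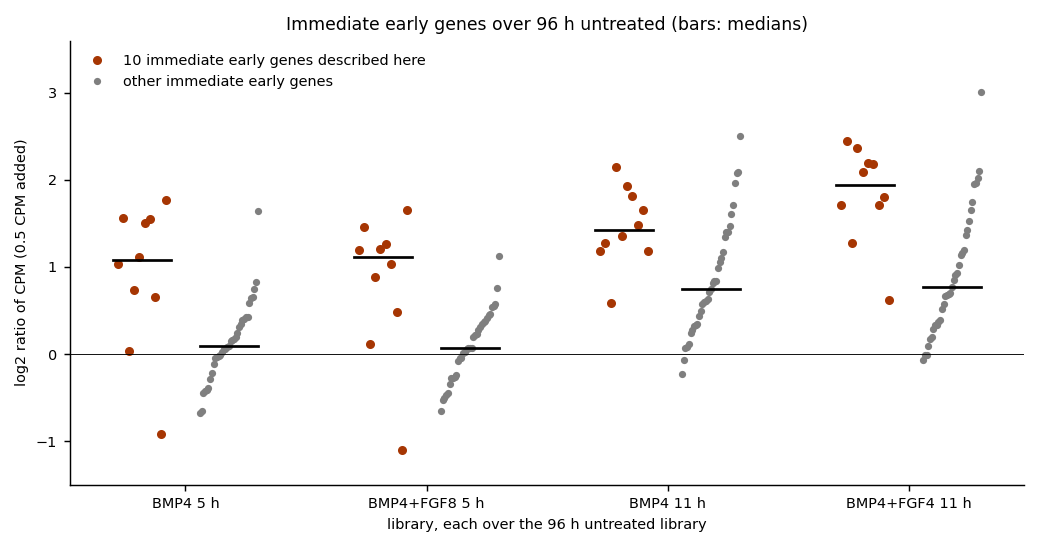
log2 ratios over the 96 h untreated library for the 10 immediate early genes (brown, left in each pair) and the 35 others that could be analysed (grey, right), in the 4 growth factor libraries; bars are medians. At 5 h the medians are 1.08 and 0.09 with BMP4 alone, and at 11 h 1.42 and 0.75. For the 8 genes that passed the filter without growth factor, the medians are 0.89 and 1.31.

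No 2-fold difference was seen among the factors that act on these genes. Of 10 regulators of the SRF, TCF and CREB families, 0 were called in any of the 9 comparisons. Elk3, a ternary complex factor, was at 25.0 CPM with BMP4 and FGF4 for 11 h and at 24.2 CPM at 96 h untreated, and Creb1 at 61.7 and 62.4 CPM in these libraries. Of 7 modulators of EGR and AP-1 that could be analysed, 0 were called. The EGR corepressors Nab2 and Nab1 were at 8.30 and 12.4 CPM with BMP4 and FGF4 for 11 h, 4.61 and 7.66 CPM with BMP4 for 5 h and 7.96 and 12 CPM at 96 h untreated. The kinases upstream, such as Map2k1, which activates ERK, had 0 called among 4 analysed in all libraries; Map2k1 was at 45.7 CPM with BMP4 and FGF4 for 11 h and at 47.8 CPM at 96 h untreated.

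Markers of other cells moved between the libraries too. The 4 fibroblast genes (Postn, Col3a1, Col1a1 and Pdgfra), which mark the feeder layer but are also made by mesoderm, summed to 888 CPM with BMP4 and FGF4 for 11 h, 374 CPM with BMP4 for 11 h, 158 CPM with BMP4 and FGF8, 171 CPM with BMP4 for 5 h, 635 CPM at 96 h untreated and 131 CPM at 0 h. Endothelial genes summed to 110, 34.8, 6.93, 6.62, 77.9 and 6.92 CPM and red blood cell genes to 758, 940, 60.5, 12.2, 960 and 8.25 CPM in the same order. The 4 macrophage genes summed to between 1.91 CPM at 0 h and 5.98 CPM with BMP4 and FGF4, with Ptprc, which marks blood cells, at 0.510 CPM in that library and without a count with BMP4 for 5 h and at 0 h, where 3 counts are 0.0136 and 0.0137 CPM. In both 5 h libraries the fibroblast sum was lower, and Fos, Fosb and Egr1 at least 2-fold higher, than at 96 h untreated. With BMP4 for 5 h over 0 h untreated, 5 of the 10 genes were called higher. In that comparison 1 of the 4 fibroblast genes was called higher (Postn, log2 ratio 2.73) and 0 lower. The median of the 4 was 0.7, and Pdgfra was negative at -0.1. Dcn and Lum, fibroblast genes outside the sum, had log2 ratios of 2.55 and 1.16 there. Thy1, the remaining gene of the list, had no row in the 5 h columns. It was at 7.37 CPM with BMP4 and FGF4 for 11 h, 3.08 CPM with BMP4 for 11 h, 0.420 CPM at 96 h untreated and 0.659 CPM at 0 h. Unlike the sum, it was thus higher with BMP4 for 11 h than at 96 h untreated. The fibroblast sum was highest in the library with BMP4 and FGF4, in which 9 of the 10 genes were highest (8 at the row of Foxb1). The part of feeder and other cells in these levels was not tested.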

How the data were processed

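The kit for all 6 mouse libraries kept the strand of total RNA, per the labels' protocols. The deposited values are raw counts of reads per gene from the authors. Cutadapt, STAR 2.4.0e, HTSeq, DESeq and the build mm10 appear in the submitters' processing notes without roles; the counting settings are unknown here. Of values from 1 to 20, 65.4% to 70.9% were even, and if both mates were counted, the intervals are too narrow.

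The 10 genes, the gene lists and the comparisons were chosen with earlier results of these data known. The growth factor columns hold 19415 to 19826 values for 19342 names. After sorting the names without regard to case, each column was aligned to them in order, a row costing more the farther it lay outside both untreated levels, and skipping or adding a row costing more the higher its counts; every name has at least 11 counts over both untreated columns. A row was secure where any other cost at least 5 units more; otherwise it had to follow secure neighbours within 10 names. Across genes, r between log2 counts of these and the untreated columns was then 0.980 to 0.983, against 0.049 to 0.138 row by row; this is not an independent check, since levels guide the alignment. On simulated columns with 200 changed genes each, 98.0% to 100% of the changed genes were placed rightly. These columns were drawn around the mean of both untreated columns, where the alignment costs least, and the rows added to them had low counts. In these respects the setting was easier than the data, so the rate does not measure how well the real columns were placed. After the data were seen, 114 to 154 names per column that an exchange of rows would fit better (gain of at least 5 units within 10 names) were left out of the counts over all genes. The 10 genes were kept.

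Counts were scaled to CPM by TMM over genes placed in all columns (edgeR 4.0.16, R 4.3.3). The filter on low values was 1 CPM in any library. A call needed a 2-fold log2 ratio with 0.5 CPM added and an exact (Clopper-Pearson) 95% interval of the plain ratio excluding 1; the interval removed 0 genes, so the fold set the calls. From each list, up to 4 genes are named by the largest log2 ratio of 96 h over 0 h at a mean of at least 5 CPM, and the 3 of most similar pattern for each of the 8 genes that reached 5 CPM. Genes named for other reasons were chosen after their values were seen. Alternatives were 2 CPM added, a filter of 5 CPM or none, no TMM, DESeq2 1.42.0 size factors, halved counts and 4 other ways of placing, with another 2 added after seeing the data. Coordinates are GENCODE vM21 on GRCm38; promoters are RefSeq.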

Additional observations from a re-analysis of the deposited data

How the results depend on the processing

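Of 1018 recomputed log2 ratios of the 10 genes under 12 alternatives, 1 changed direction: Fosb with BMP4 and FGF4 over BMP4 alone at 11 h, -0.86 at the row of Foxb1, an alternative chosen after seeing the data. That leaves 0 of 10 genes called in this comparison, in place of 1. The filters on low values and the halved counts cannot alter a log2 ratio. Placed on 96 h untreated alone, 40 of the 40 values of these genes kept their row, and on 0 h alone 39 did. Most of the recomputed ratios could therefore hardly change direction, and their number says little about how firm the ratios are. Of 102 recomputed counts of genes called, 97 stayed within 1.5 times. With 2 CPM added, which shrinks ratios of weakly expressed genes, the count was 3 with BMP4 for 5 h over 96 h untreated (6 as reported), 4 with BMP4 and FGF8 over 96 h untreated (7) and 3 with BMP4 for 5 h over 0 h (5); it was also 3 in the last with a filter of 5 CPM, which removes Egr2 and Egr3. Counts over all genes moved further. With 2 CPM added, and with a filter of 5 CPM, they were 507 and 537 for 96 h over 0 h untreated (910 as reported), 429 and 471 for BMP4 5 h over 96 h untreated (765), 415 and 462 for BMP4 with FGF8 (756), 180 and 224 for BMP4 11 h (398) and 91 and 106 for BMP4 with FGF4 (221) over 96 h untreated, 162 and 229 for BMP4 11 h over 5 h (419), 19 and 18 for added FGF8 (39), 111 and 172 for added FGF4 (271), and 25 and 38 for BMP4 5 h over 0 h untreated (79). Placed on 96 h untreated alone, they were 467 for BMP4 5 h and 459 for BMP4 with FGF8 over 96 h untreated, 279 for BMP4 11 h over 5 h and 154 for added FGF4, the last being 172 when placed on 0 h alone; the cause was not tested. Keeping names open to an exchange, an alternative added after seeing the data, gave 75 for added FGF8. Scaling without TMM shifted the median of all genes by 0.14 in BMP4 with FGF4 over BMP4 at 11 h and by -0.10 in BMP4 11 h over 5 h, and changed no call of the 10 genes. Placed on 0 h untreated alone, Nr4a1 had no row in the column of BMP4 with FGF8 and left the comparisons. No paired analysis was possible because each condition has 1 library and its number is only an order of accession; for the same reason no library could be left out in turn. Depth does not limit genes above about 1 CPM here; the unknown spread between libraries of 1 condition does.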

Other observations

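Genes of ERK feedback differed between the untreated libraries. Of 12 phosphatases and feedback genes of the ERK pathway, 5 were at least 2-fold lower at 96 h untreated than at 0 h. These were Spry4, Etv4, Etv5, Dusp4 and Spry2, where 2.52% of all genes were called lower. With BMP4 for 5 h, 5 of the 12 were higher than at 96 h untreated, where 2.36% of all genes were called higher. Both comparisons share the 96 h library. Spry4, which restrains signalling of receptor tyrosine kinases, was at 6.53 CPM with BMP4 and FGF4 for 11 h, 11.3 CPM with BMP4 for 11 h, 24.7 CPM with BMP4 and FGF8, 25.3 CPM with BMP4 for 5 h, 4.69 CPM at 96 h untreated and 27.8 CPM at 0 h. Etv4, an ETS factor downstream of FGF, was at 9.53, 20.6, 35.1, 34.9, 8.31 and 37.2 CPM in that order. Others of the list had another order of libraries, such as Dusp5, a phosphatase of ERK, at 8.11, 7.83, 5.11, 5.20, 4.26 and 4.07 CPM. With BMP4 and FGF4 for 11 h, 0 of the 12 were higher than at 96 h untreated, beside 1.52% of all genes. Etv4 was lower there than with BMP4 alone (log2 ratio -1.07), where 0.693% of all genes were called lower.

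Stress genes varied between the libraries, some being highest with BMP4 for 11 h. Ppp1r15a, which directs a phosphatase to a translation initiation factor, was at 46.4 CPM with BMP4 and FGF4 for 11 h, 63.7 CPM with BMP4 for 11 h, 16 CPM with BMP4 and FGF8, 17.0 CPM with BMP4 for 5 h, 19.2 CPM at 96 h untreated and 13.7 CPM at 0 h. Sesn2, a stress-induced brake on growth, was at 16.3, 26.9, 8.10, 8.19, 7.04 and 7.91 CPM in the same order. Among 9 genes of the integrated stress response, 3 were higher with BMP4 for 11 h than at 96 h untreated and 0 lower. In that comparison 2.63% of all genes were called higher and 0.335% lower. Of 12 p53 target genes, 5 were higher and 0 lower in that comparison; Cdkn1a, the cell cycle inhibitor p21, was at 18.7, 24.6, 9.20, 11.1, 4.74 and 6.81 CPM in the same order. Pmaip1, a mediator of apoptosis, was highest at 0 h, at 5.72, 14.8, 26.6, 26.7, 1.69 and 29.2 CPM. Of 8 heat shock genes, 2 were at least 2-fold higher at 96 h than at 0 h untreated and 0 lower, beside 4.06% of all genes higher. The 2 were Hspa1a (42.4 CPM with BMP4 for 11 h, 3.15 CPM with BMP4 and FGF8, 8.94 CPM with BMP4 for 5 h, 6.92 CPM at 96 h and 1.61 CPM at 0 h) and Hspa1b (39.7, 3.75, 9.77, 7.56 and 2.20 CPM), inducible chaperones and near-identical copies whose reads may be shared. Neither was placed in the column of BMP4 with FGF4, so they entered no comparison of growth factor libraries. Of the 5 heat shock genes placed in all libraries that passed the filter, 0 were called.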
